A study of Mus musculus with 12 samples.

Results

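The arrays of cells labelled reprogrammed lung were compared with the arrays of adult mammary cells, gene by gene, to measure how close their expression was to the adult mammary state. The comparison used 6 of the 12 arrays of the study, 3 of each group, chosen by their titles: reprogrammed lung replicates 1, 3 and 4 and adult mammary replicates 1, 2 and 4. Each array is a one-colour Agilent whole mouse genome array. Adult mammary cells came from female mice aged 10 weeks, whose glands were minced and dissociated for 30 minutes in trypsin and collagenase and enriched by repeated spins at 400 x g, with no cell sort stated. Adult lung, the state the reprogrammed cells are named after, came from mice of the same age and sex after 45 minutes of dissociation. For both reprogrammed groups the labels give only that name and the words epithelial cells: the age, the host, the time after grafting and the supporting stroma are not given in the sources used here, nor whether lung in the name refers to where the cells came from or to what they became. The study's title speaks of stroma-dependent reprogramming of adult lineages in vivo, and donor cells were carried in Matrigel for transplantation. Adult lung and reprogrammed mammary, with 3 arrays each, served here to set a scale. Strain and number of animals are not given, so p-values measure only the spread between arrays, which may be technical.

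The mammary gland is a branched epithelium of an inner luminal layer, which holds hormone-sensing cells and milk-forming progenitors, and an outer basal or myoepithelial layer, which contracts to expel milk. Lung epithelium is lined by gas-exchanging alveolar type I cells, surfactant-secreting alveolar type II cells and, in the airways, secretory club cells and ciliated cells. Organ stroma can instruct epithelium of another origin in tissue recombination, and lineage factors such as Nkx2-1 in lung and Elf5 in mammary alveolar cells hold the respective programmes. Genes of lung, of mammary gland and of neither are therefore described in turn.

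Levels are given as log2 of the scanner's processed signal minus the 75th percentile of the same array, so that 0 is the 75th percentile of an array. The 2 groups were not equally tight. The median SD of a feature was 0.509 in reprogrammed lung and 0.294 in adult mammary. Reprogrammed lung replicate 1 and adult mammary replicate 4 stood apart: 91.2% and 89.2% of their probes were well above background, against 72.1% to 77.8% on the other 10 arrays, and their signal spanned 6.16 and 7.15 log2 units between the 10th and 90th percentiles, against 8.50 to 9.20. Both also carried the most B cell signal of their group, as given below. Across tested features, the correlation between a reprogrammed lung and an adult mammary array ran from 0.845 to 0.971.

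For most features tested, the mean level in reprogrammed lung was within 2-fold of adult mammary. Of 24497 features (14743 with a gene symbol), the mean difference was under 2-fold for 92.4%. The 95% confidence interval of the difference lay wholly inside 2-fold for 12495, which is 51% of those tested. That interval uses the spread of all 4 groups. With the 6 arrays of the comparison alone, 8667 features (35.4%) lay inside. The median difference over all features was 0.09, and 58.6% of features had a difference above 0. For comparison, 74.7% of features were under 2-fold between adult lung and adult mammary, and 95.1% between reprogrammed mammary and adult mammary. These comparisons share the adult mammary arrays.

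In limma with Benjamini-Hochberg adjustment at 0.05, 3 features were higher in reprogrammed lung than in adult mammary (0.0122% of those tested) and 0 were lower (0%). At an unadjusted p under 0.05 the counts were 1806 higher (7.37%) and 1081 lower (4.41%). All 3 reprogrammed lung arrays lay above all 3 adult mammary arrays for 1580 of 24334 features with every value (6.49%) and below them for 1178 (4.84%). In contrast, adult lung was higher than adult mammary for 3071 features and lower for 3907, and 3442 were higher and 2280 lower in reprogrammed lung than in adult lung. The few calls do not show that the remaining genes were equal: the median half-width of the 95% interval was 0.65 log2 units. The count depended on single arrays. Without reprogrammed lung replicate 4, 279 features were higher and 48 lower. Of the 279, 73 (26.2%) were olfactory or vomeronasal receptors, against 1.70% of tested features, and of the 48 lower features 0 were. Some receptors entered the test only through reprogrammed lung: 73 of the 374 olfactory and 10 of the 43 vomeronasal features tested. That filter favours higher over lower calls, so the receptor shares are a description only. Without reprogrammed lung replicate 3 there were 8 higher and 5 lower, and without reprogrammed lung replicate 1 there were 3 and 3. Without adult mammary replicate 4 there were 15 and 1. With slide as a fixed block no feature passed in either direction.

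**Figure D1:**
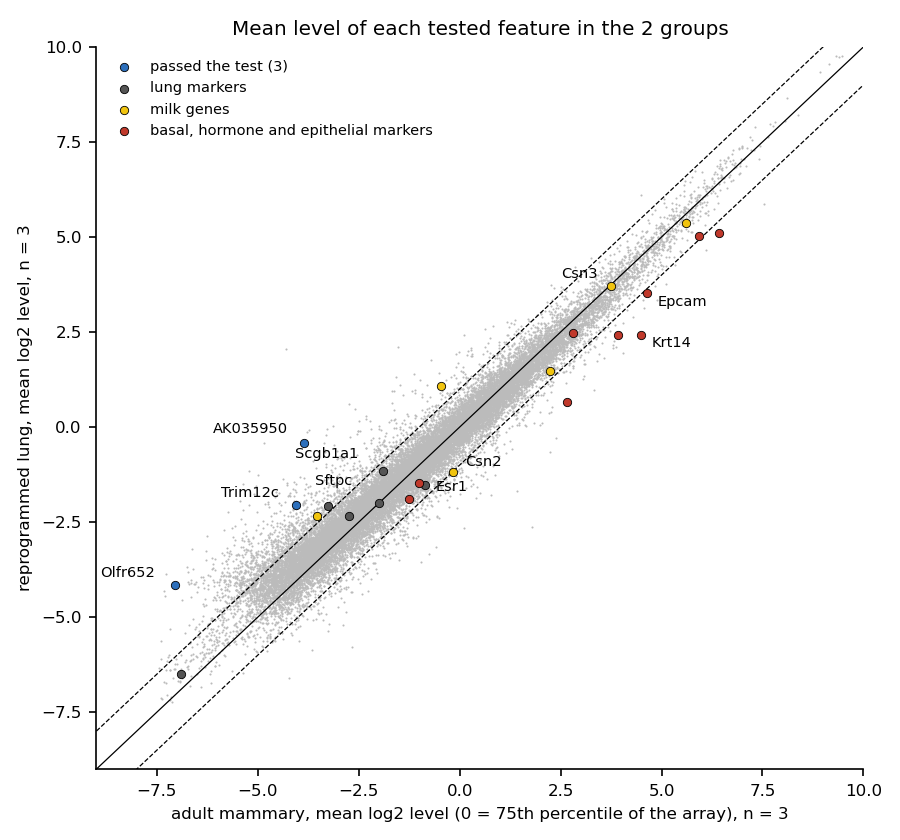
Mean log2 level of each tested feature in adult mammary (x axis) and reprogrammed lung (y axis), 3 arrays each, with 0 at the 75th percentile of an array; the solid line marks equality and the dashed lines a 2-fold difference. Lung markers lie low in both groups, milk genes spread around the line, and epithelial and basal keratins lie on or below the lower dashed line.

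A position between the lung and mammary states was computed from features that were at least 2-fold different, with an adjusted p under 0.05 in limma, between adult lung and reprogrammed mammary, 2 groups that are not part of the comparison. For each feature, 0 is the reprogrammed mammary mean and 1 the adult lung mean, and an array's position is the median over the features. Over the 2019 features higher in adult lung, the reprogrammed lung arrays lay at 0.326, 0.0895 and 0.122 (replicates 1, 3 and 4) and the adult mammary arrays at 0.0871, 0.0287 and 0.0542 (replicates 1, 2 and 4). All 3 reprogrammed lung arrays lay further towards adult lung than every adult mammary array, replicate 1 by far the furthest. The means were 0.179 ± 0.128 (SD, n = 3) and 0.0567 ± 0.0293 (SD, n = 3). The difference of 0.122 had an exact permutation p of 0.1 (two-sided), the smallest that 3 arrays against 3 allow, so this design cannot pass 0.05. Without replicate 1 of reprogrammed lung the difference was 0.0281, and without both narrow-range arrays it was 0.0476. With quantile normalization it was 0.0542 (exact permutation p = 0.4) and with the authors' log2 values 0.0470 (exact permutation p = 0.5). With normexp background correction it was 0.146 (exact permutation p = 0.3). In these settings the 2 groups overlapped, except without both narrow-range arrays. There reprogrammed lung replicates 3 and 4 lay at 0.0789 and 0.0975, above adult mammary replicates 1 and 2 at 0.0687 and 0.0125.

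The slides bear on the same result. The 3 reprogrammed lung arrays lay on the 3 slides that also held the adult lung arrays, and 1 slide alone held both reprogrammed lung (replicate 3) and adult mammary (replicate 2). With slide as a block the lung-side difference was 0.106, and within the shared slide it was 0.0608. The part of slide in the result was not tested beyond these values.

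None of the 2019 lung-high features was higher in reprogrammed lung than in adult mammary at an adjusted p under 0.05 in limma. At an unadjusted p under 0.05, 249 were higher (12.3%, against 7.37% of all features) and 69 lower (3.42%, against 4.41%). Their median difference was 0.25, against 0.09 over all features, while the same features differed by a median of 1.86 between adult lung and reprogrammed mammary. Without adult mammary replicate 4 there were 2 such lung-high features past the threshold, without reprogrammed lung replicate 3 there were 4, and without reprogrammed lung replicate 4 there were 21. Over all features tested, 15, 8 and 279 were higher in the same settings, so these counts alone show no excess among lung-high features.

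Over the 2392 features higher in reprogrammed mammary than in adult lung, the 2 groups overlapped. Reprogrammed lung arrays lay at 0.199, 0.0381 and 0.133 and adult mammary arrays at 0.0904, 0.0964 and 0.0999. The adult mammary arrays lay within a narrow band, with reprogrammed lung replicate 3 below it and replicates 1 and 4 above it. The difference in means was 0.0277 (exact permutation p = 0.7, two-sided). It changed sign without reprogrammed lung replicate 1 (-0.00739), without both narrow-range arrays (-0.0136) and within the shared slide (-0.0583). None of these mammary-high features was lower in reprogrammed lung at an adjusted p under 0.05 in limma; 1, AK035950, was higher. At an unadjusted p under 0.05, 203 were lower (8.49%, against 4.41% of all features) and 262 higher (10.95%, against 7.37%). Without reprogrammed lung replicate 3, 4 were lower at the adjusted threshold, and without replicate 4, 20 were. Over all features tested, 5 and 48 were lower in the same settings.

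**Figure D2:**
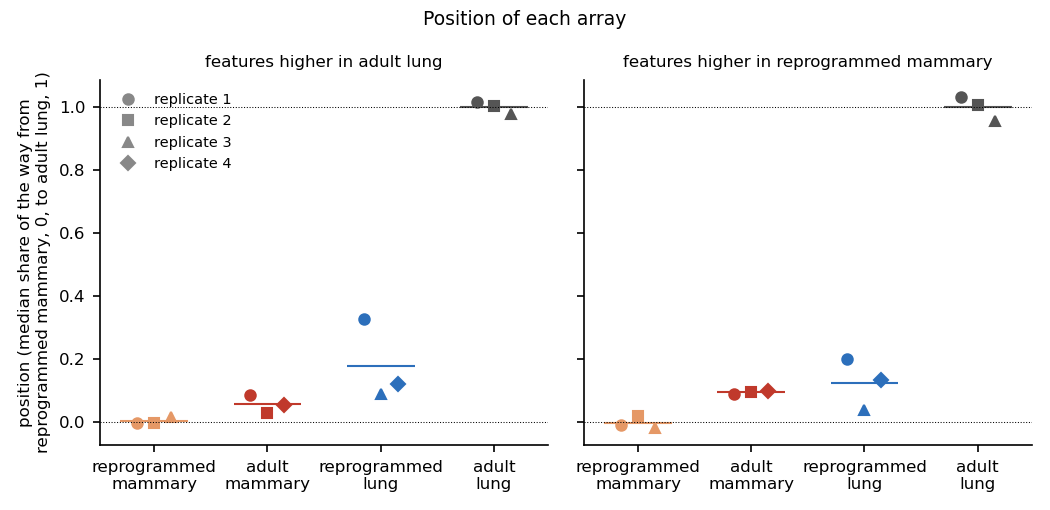
Position of each of the 12 arrays between reprogrammed mammary (0) and adult lung (1), as the median share of the way over 2019 features higher in adult lung (left) and 2392 features higher in reprogrammed mammary (right); symbols show replicate numbers and bars the group means. All reprogrammed lung arrays lie below 0.4, far from adult lung.

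No gene of the alveolar, airway or ciliated lists differed from adult mammary past the threshold, and most of the alveolar and airway genes were lower than in adult lung. Sftpc, the surfactant protein of alveolar type II cells, lay at -2.15, -3.01 and -1.05 in reprogrammed lung and at -3.46, -3.57 and -2.77 in adult mammary. The ranges overlapped, and the difference of 1.19 ± 0.48 (SE) did not pass the test (adjusted p = 0.390, limma). In adult lung Sftpc stood at 7.27, a mean over the 2 arrays with a value, and the difference of reprogrammed lung from it was -9.34 (adjusted p = 9.93e-06, limma). Nkx2-1, the transcription factor that specifies lung epithelium, was not well above background on any array of reprogrammed lung or adult mammary and stood at 1.78 ± 0.10 (SD, n = 3) in adult lung. Sftpb, needed for surfactant function, differed from adult mammary by 0.42 ± 0.28 (SE). Ager, the alveolar type I receptor, differed by 0.01 ± 0.27 (SE), with a 95% interval from -0.59 to 0.62, and Hopx, another alveolar type I gene, by -0.02 ± 0.19 (SE), with an interval from -0.43 to 0.40. For these 2 genes the interval excluded a 2-fold difference.

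Of 13 tested alveolar type II genes, none passed the test in either direction (limma). At an unadjusted p under 0.05, 2 were higher (15.4%, against 7.37% of all features) and 1 lower (7.69%, against 4.41%). Their median difference was 0.39, and it ran from -0.02 to 0.62 in 26 alternative settings. Of 14 alveolar type I genes none passed, with a median of 0.03, and 1 was higher at an unadjusted p under 0.05 (7.14%). By comparison, 12 of the 13 and 13 of the 14 were higher in adult lung than in adult mammary, and the same numbers were lower in reprogrammed lung than in adult lung. Those comparisons share arrays with the first. Some of the larger differences were in dim genes. Sftpa1, another surfactant protein, lay at -3.18, -7.12 and -2.19 in reprogrammed lung against -6.45, -7.29 and -4.99 in adult mammary, and was above background on 2 and 1 of these arrays. Cldn18, an alveolar tight junction gene, differed by 1.23 ± 1.25 (SE). Col4a3, a basement membrane collagen, lay at -2.80, -2.94 and -3.01 in reprogrammed lung, above the -3.67, -3.94 and -4.33 of adult mammary, and differed by 1.06 ± 0.27 (SE; adjusted p = 0.216, limma).

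Airway genes gave the highest single values among the lung lists. Scgb3a1, a secretoglobin of airway secretory cells, lay at 0.00, 0.51 and 3.70 in reprogrammed lung and at -1.29, -1.05 and -1.03 in adult mammary. The groups did not overlap, and replicate 4 was the highest, but the difference of 2.53 ± 0.78 (SE) did not pass (adjusted p = 0.286, limma). Scgb1a1, the club cell secretoglobin, was also highest in replicate 4, at 0.71 against -1.91 and -2.25 in replicates 1 and 3, and the adult mammary arrays lay at -1.36, -1.72 and -2.64. Its difference from adult lung was -9.41 (adjusted p = 2.67e-05, limma). Bpifa1, an airway host-defence protein, differed by 2.19 ± 1.15 (SE) and Lypd2 by 1.49 ± 0.67 (SE). Cyp2f2, a club cell cytochrome P450, differed by -0.67 ± 0.39 (SE). Of 13 airway secretory genes tested, none passed, with a median difference of 0.48. At an unadjusted p under 0.05, 2 were higher (15.4%, against 7.37% of all features). Of 16 ciliated cell genes, none passed and the median was 0.18. At an unadjusted p under 0.05, 1 was higher and 1 lower (6.25% each, against 7.37% and 4.41% of all features). Among them Foxj1, the regulator of motile cilia, differed by 0.09 ± 0.92 (SE). The largest difference was in Capsl, which was lower in all 3 reprogrammed lung arrays (-1.45 ± 0.39, SE; adjusted p = 0.237, limma).

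All 11 lung transcription factors had a difference above 0, as had 58.6% of all features. Their median was 0.65, and none passed the test (limma). At an unadjusted p under 0.05, 4 were higher (36.4%, against 7.37% of all features). Foxp2, which acts in lung epithelium, differed by 1.34 ± 0.39 (SE), Hoxa5, a regulator of lung mesenchyme, by 0.98 ± 0.23 (SE), Gata6, a factor of endoderm and vessels, by 0.96 ± 0.35 (SE), and Meox2 by 0.71 ± 0.32 (SE). Foxp2 and Hoxa5 did not overlap between the groups. These factors are also expressed outside epithelium. Without the narrow-range arrays the list's median was 0.29. The embryonic lung epithelium list of 11 genes was mixed, with a median of 0.21: Id2 differed by 1.20 ± 0.28 (SE) and Bmp4, a signal of the growing bud tips, by 0.79 ± 0.16 (SE), while Fgfr2, the receptor of the lung growth factor Fgf10, differed by -1.68 ± 0.51 (SE). None of these passed.

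Milk genes were present in reprogrammed lung but varied between arrays more than between groups. Csn2, beta-casein, lay at -2.91, 4.26 and -4.89 in reprogrammed lung (replicates 1, 3 and 4) and at -3.09, 2.59 and 0.01 in adult mammary (replicates 1, 2 and 4). Each group held at least 1 high and 1 low array, and the difference was -1.01 ± 2.08 (SE), with a 95% interval from -5.62 to 3.59. The same spread was seen for Csn1s1, alpha-casein, at -0.07, 5.40 and -0.88 against -0.73, 4.53 and 2.94. In adult lung both were not well above background on any array. Csn3 and Wfdc18 spread less than these and had small mean differences. Csn3, kappa-casein, lay at 2.13, 4.92 and 4.05 against 3.08, 3.65 and 4.50 (difference -0.04 ± 0.84, SE). Wfdc18 lay at 3.48, 7.54 and 5.09 against 4.91, 6.15 and 5.77 (difference -0.24 ± 0.79, SE). With errors of this size the values do not show that the groups were equal. Lalba, alpha-lactalbumin, the milk-sugar cofactor, lay at -0.91, 3.12 and 1.06 against 0.25, -1.51 and -0.16, a difference of 1.57 ± 0.85 (SE; adjusted p = 0.487, limma). Replicate 3 of reprogrammed lung was the highest array of either group for each of these 5 genes. It was also the highest for Wap, whey acidic protein, at 0.97, when the other 5 arrays lay between -4.52 and -2.91.

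Glycam1, a mucin-like milk protein that high endothelial venules also make, had the largest difference of the list, 3.64 ± 2.22 (SE), with arrays from -2.01 to 6.42 in reprogrammed lung and from -5.94 to 2.27 in adult mammary. Spp1, osteopontin, differed by 1.73 ± 0.57 (SE; adjusted p = 0.314, limma). In the list of 18 tested milk and secretory genes none passed. At an unadjusted p under 0.05, 2 were higher (11.1%, against 7.37% of all features). The 95% interval of 1 lay inside 2-fold (5.56%, against 51% of all features), and the median difference was 0.24. The sign rested on 1 array: the median was -0.38 without replicate 3 of reprogrammed lung and 0.90 without replicate 1. Against adult lung, 12 of the 18 were higher in reprogrammed lung. Elf5, the alveolar progenitor factor, lay at -2.26, 0.56 and -0.70 in reprogrammed lung and at 0.05, 0.32 and 0.36 in adult mammary, and the list of 7 progenitor genes had a median of -0.32, none passing; it was -1.23 without replicate 3 of reprogrammed lung and 0.51 without replicate 1. In that list Lbp differed by 0.92 ± 0.36 (SE), Ehf, an epithelial Ets factor, by -0.87 ± 0.54 (SE), and Itgb3, an integrin, by 0.87 ± 0.27 (SE). Kit, a further fixed marker of these progenitors, has no value given here.

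Casein transcription is known to depend on prolactin acting through STAT5, which binds a palindrome in casein promoters. The start-proximal 120 bases of the alpha- and beta-casein promoters, whose levels spread so widely here, are shown 5′ to 3′ on the gene's strand from RefSeq on build GRCm38.p6, with each match to TTCNNNGAA in capitals. The motif is its own reverse complement, so both strands were searched at once.
Csn1s1, chr5:87666088-87666207, plus strand: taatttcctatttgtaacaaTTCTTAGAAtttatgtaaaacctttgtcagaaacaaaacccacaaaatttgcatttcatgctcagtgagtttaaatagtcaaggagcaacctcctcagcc
Csn2, chr5:87699426-87699545, minus strand: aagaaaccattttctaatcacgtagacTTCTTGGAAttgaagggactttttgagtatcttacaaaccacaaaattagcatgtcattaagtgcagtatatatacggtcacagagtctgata
Each holds 1 match, starting 100 and 93 bases upstream of the annotated start. The windows of the milk gene Wap and of Krt14, searched in the same way, hold none. Of 32851 promoter windows of this length in the table, 3.15% hold the motif. A match is a description of the letters only.

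Of 14 hormone-sensing luminal genes tested, 10 had a difference below 0 and 4 above, and none passed the test. Prlr, the prolactin receptor, lay at 0.92, 2.79 and 3.59 in reprogrammed lung and at 4.39, 3.04 and 4.37 in adult mammary, a difference of -1.50 ± 0.63 (SE; adjusted p = 0.402, limma). It was higher in reprogrammed lung than in adult lung by 5.40 log2 units (adjusted p = 0.000263, limma). Esr1, the oestrogen receptor, lay at -2.74, -1.38 and -0.26 against -0.63, -1.33 and -1.07, and was not well above background on any adult lung array. Pgr, the progesterone receptor, lay at 1.15, 2.09 and 4.21 against 3.43, 1.93 and 3.03. For all 3 receptors replicate 1 was the lowest reprogrammed lung array, and replicate 4 was within or above the adult mammary range for Esr1 and Pgr. In the list 4 were lower at an unadjusted p under 0.05 (28.6%, against 4.41% of all features) and the median difference was -0.39; without the narrow-range arrays it was -0.16. Calca, calcitonin, had the largest difference, -4.41 ± 1.33 (SE), with arrays at -3.16, 0.95 and -5.67 against 2.09, 2.32 and 0.94 (adjusted p = 0.275, limma). Cited1, a co-activator of hormone-responsive luminal cells, lay at -0.03, 2.85 and 3.02 against 3.68, 4.46 and 4.02, below it on every array (-2.11 ± 0.66, SE; adjusted p = 0.293, limma). Stc2, a secreted stanniocalcin, differed by -1.16 ± 0.75 (SE). Of 20 mammary transcription factors none passed, with a median of -0.47; Tfap2c differed by -1.21 ± 0.56 (SE) and Trps1 by -1.15 ± 0.47 (SE).

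Basal cell genes were the mammary group most often lower on all arrays. Krt14, the basal keratin, lay at 1.22, 3.52 and 2.56 in reprogrammed lung and at 4.51, 4.66 and 4.29 in adult mammary, a difference of -2.06 ± 0.67 (SE; adjusted p = 0.307, limma). Krt5, its partner keratin, lay at -0.01, 2.00 and 0.01 against 2.29, 2.74 and 2.97. Krt17 differed by -1.72 ± 0.47 (SE) and Lgr5, a Wnt co-receptor of basal and stem cells, by -1.82 ± 0.39 (SE; adjusted p = 0.169, limma), and neither overlapped. None of the 17 genes passed, but 6 lay below adult mammary on all arrays (35.3% of the list, against 4.84% of all features) and none lay above. Of these 6, 3 had an unadjusted p under 0.05 (17.6% of the list, against 4.41% of all features). The median was -0.64, and -0.54 without the narrow-range arrays. In contrast Acta2, the smooth muscle actin of myoepithelial cells, lay at 7.09, 7.66 and 7.40 against 7.69, 7.40 and 7.25, a difference of -0.07 with a 95% interval from -0.51 to 0.37, and Trp63, the basal transcription factor, differed by -0.64 ± 0.91 (SE). Smooth muscle of vessels expresses Acta2 too. In bulk RNA fewer cells of a type and less RNA per cell cannot be told apart.

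Genes common to all epithelia were lower in one array above all. Epcam, an epithelial adhesion protein, lay at 1.58, 4.65 and 4.33 in reprogrammed lung and at 4.76, 4.61 and 4.58 in adult mammary. Krt8 lay at 3.56, 5.54 and 6.20 against 6.61, 6.38 and 6.30, and Krt18, the keratin it pairs with in luminal cells, at 3.66, 5.57 and 5.81 against 6.25, 5.89 and 5.68. Replicate 1 was the lowest of the 6 arrays for each, and replicates 3 and 4 lay within 1 log2 unit of an adult mammary array. The list of 22 pan-epithelial genes had a median of -1.13, with 21 members below 0, none passing and 6 lower at an unadjusted p under 0.05 (27.3%, against 4.41% of all features); without the narrow-range arrays the median was -0.29. Per array, the list's median level relative to the adult mammary mean was -2.66, -0.13 and -0.41. The largest differences were in Ovol1, an epithelial repressor of motility (-1.85 ± 0.68, SE), Cldn4 (-1.75 ± 0.73, SE), Cldn7 (-1.46 ± 0.77, SE), both claudins of tight junctions, and Krt19 (-1.42 ± 0.68, SE). Cdh1, E-cadherin, was lower on all 3 arrays, at -2.32, -2.02 and -2.09 against -1.53, -0.44 and -0.60.

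**Figure D3:**
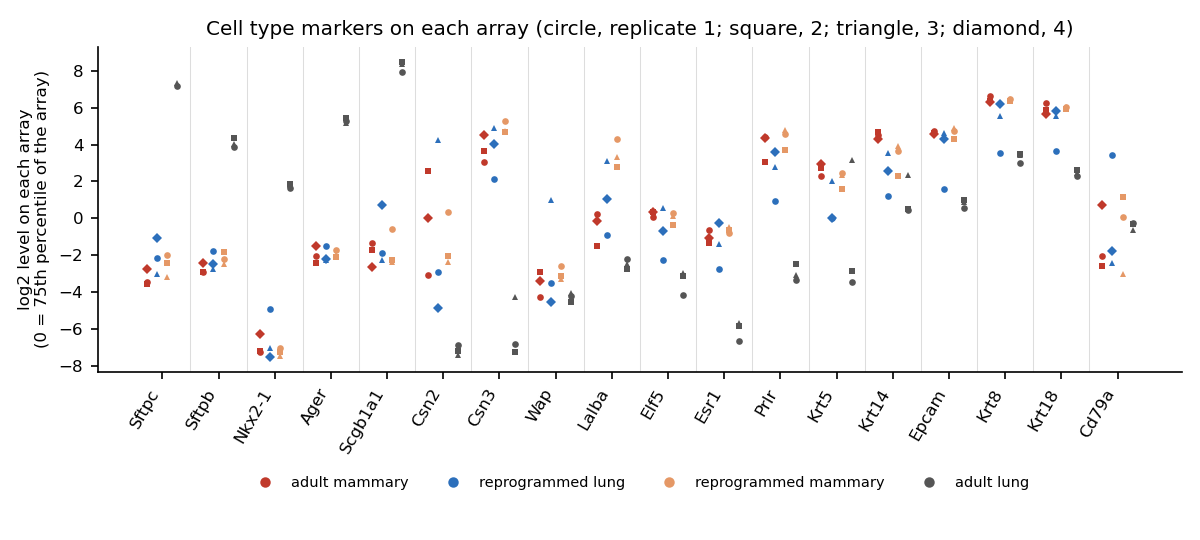
Log2 level of cell type markers on each array, with 0 at the 75th percentile of an array and symbols for replicate numbers. Reprogrammed lung (blue) lies far below adult lung for the lung markers from Sftpc to Scgb1a1, with replicate 4 above the adult mammary (red) range for Sftpc and Scgb1a1, spreads as widely for Csn2, and its replicate 1 is low for Epcam, Krt8 and Krt18 and high for the B cell gene Cd79a.

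Immune genes moved with the 2 narrow-range arrays. Cd79a, part of the B cell receptor, lay at 3.44, -2.41 and -1.79 in reprogrammed lung and at -2.06, -2.58 and 0.70 in adult mammary, with replicate 1 highest in the first group and replicate 4 highest in the second. Of 14 B cell genes tested all had a difference above 0, with a median of 1.26, none passed and 0 had an unadjusted p under 0.05. Relative to the adult mammary mean, the list's median level was 5.65, -0.96 and -0.53 in reprogrammed lung and -1.20, -1.43 and 2.52 in adult mammary. The range of the summed level was 0.747 to 7.37 in reprogrammed lung and 0.658 to 4.03 in adult mammary. The direction of the median rested on replicate 1: it was -0.89 without that array, -0.22 with slide as a fixed block and 0.45 without both narrow-range arrays. The 9 MHC class II genes showed a median of 1.23, which was -0.59 without replicate 1 of reprogrammed lung, -0.21 with slide as a fixed block and 0.37 without both narrow-range arrays. The 15 T and NK cell genes had a median of 0.34, which was -0.82 without replicate 1 and -1.02 with slide as a fixed block. Cd3e, the T cell receptor subunit, lay at 2.18, -2.71 and 0.28 against -2.45, -2.35 and 2.07. The part of lymphoid RNA in the results for epithelial genes was not tested.

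Of other cell types, neutrophil genes had the highest median, 1.75 over 6 tested genes and 0.45 without replicate 1 of reprogrammed lung, led by S100a9 at 3.43, -1.65 and -3.06 against -4.51, -6.42 and -3.60. S100a9 did not overlap between the groups (4.42 ± 1.34, SE; adjusted p = 0.278, limma), Retnlg differed by 3.85 ± 1.56 (SE) and S100a8 by 3.15 ± 1.20 (SE). Of 17 endothelial genes all had a difference above 0, with a median of 0.60, 7 were higher at an unadjusted p under 0.05 (41.2%, against 7.37% of all features) and none passed. The median was 0.20 without adult mammary replicate 4. Pecam1 lay at 4.41, 4.24 and 3.98 against 4.03, 3.55 and 3.03, and Egfl7, a vessel matrix protein, did not overlap (1.15 ± 0.28, SE; adjusted p = 0.214, limma). Other endothelial genes with the largest values were Plvap (1.12 ± 0.40, SE), Ramp2 (0.95 ± 0.29, SE) and Sox18 (0.80 ± 0.29, SE). Fibroblast genes were not uniform: Col1a1 lay at 3.95, 4.22 and 6.08 against 4.87, 6.03 and 4.72, and Pdgfra at 2.36, 2.49 and 4.97 against 3.25, 3.28 and 2.65, with replicate 4 highest in both. The list of 15 fibroblast genes had a median of -0.31, with 0 at an unadjusted p under 0.05; it was 0.23 without replicate 1 of reprogrammed lung and -1.12 without replicate 4. Among 14 macrophage genes Itgax alone did not overlap (2.29 ± 0.63, SE), and its adult mammary level was above background on 2 arrays. Csf1r and Adgre1, which mark macrophages, differed by -0.24 ± 0.55 and 0.19 ± 0.45 (SE). The adipocyte genes Adipoq and Plin1 differed by 0.05 ± 0.64 and 0.54 ± 0.39 (SE).

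Other lists held no gene that passed in either direction (limma). Lymphatic and high endothelial venule genes had a median of 0.98 over 8 genes, and 0.37 without the narrow-range arrays. At an unadjusted p under 0.05, 1 was higher and 1 lower (12.5% each, against 7.37% and 4.41% of all features). Plasma cell genes had a median of 0.14 over 5, erythroid genes 0.63 over 6, skeletal muscle genes 0.45 over 10, cardiac muscle genes 0.47 over 7 and kidney tubule genes 0.55 over 12. Schwann cell and nerve genes had a median of -0.16 over 7, cornified and squamous genes 0.07 over 10 and pluripotency genes 0.35 over 6. Of 14 matrix remodelling genes 4 were higher at an unadjusted p under 0.05 (28.6%, against 7.37% of all features), with a median of 0.29. Mmp11, a stromal metalloproteinase, differed by 1.26 ± 0.19 (SE), with an adjusted p of 0.108 (limma). Of 23 immediate-early and dissociation genes, which respond to tissue handling, 11 had intervals inside 2-fold (47.8%, against 51% of all features), with a median of 0.27. Hypoxia and glycolysis genes had a median of -0.24 over 16 and imprinted growth genes -0.15 over 12. Xist, expressed from the inactive X chromosome of females, differed by 0.10 ± 0.24 (SE).

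**Figure D4:**
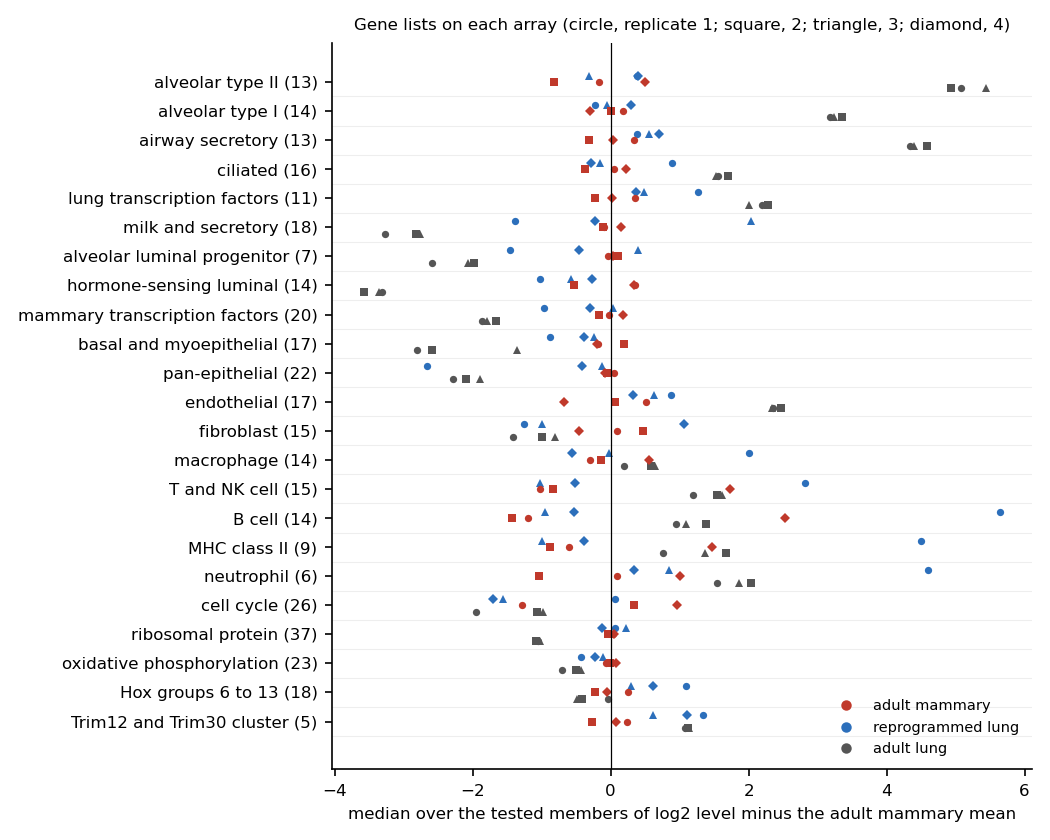
Median over the tested members of each gene list (number in brackets) of log2 level minus the adult mammary mean, for each array of adult mammary, reprogrammed lung and adult lung, dim probes at their measured value. Reprogrammed lung lies far from adult lung for the alveolar and airway secretory lists, its milk list spreads from -1.39 to 2.03, and replicate 1 (circle) stands apart for pan-epithelial, B cell, MHC class II and neutrophil genes.

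Ribosomal and oxidative phosphorylation genes, shared by all cells, had small differences. Of 37 ribosomal protein genes tested, the 95% interval of 35 lay inside 2-fold (94.6%, against 51% of all features), with a median of 0.07; 35 of the 37 were lower in adult lung than in adult mammary and 35 were higher in reprogrammed lung than in adult lung. Those 2 comparisons share the adult lung arrays. Rpl14 had the largest difference, -0.65 ± 0.18 (SE). For oxidative phosphorylation all 23 intervals lay inside 2-fold and the median was -0.23, with 7 members below adult mammary on all arrays (30.4%, against 4.84% of all features), Atp5a1 (-0.49 ± 0.17, SE) having the largest difference. The 26 cell cycle genes had a median of -1.05, and -1.05 again without the narrow-range arrays, with 24 below 0 and none passing. At an unadjusted p under 0.05, 4 were lower (15.4%, against 4.41% of all features). Top2a, which untangles replicated DNA, lay at 0.37, -1.95 and -2.28 against -1.92, 1.46 and 2.18, so adult mammary replicate 1 was as low as the lowest reprogrammed lung arrays. Cdk1, which drives entry into mitosis, lay at -3.14, -4.82 and -4.98 against -4.81, -1.48 and -0.57. Of 16 cholesterol synthesis and 18 fatty acid synthesis genes, 11 and 12 had intervals inside 2-fold, with medians of -0.16 and -0.02.

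Hox genes, which record the position of a tissue along the body axis, leaned above the adult mammary level. Of 18 tested genes of groups 6 to 13, 17 had a difference above 0 (58.6% of all features had), with a median of 0.72, and none passed. At an unadjusted p under 0.05, 8 were higher (44.4%, against 7.37% of all features). On all arrays 7 lay above adult mammary (38.9% of the list, against 6.49% of all features). Hoxb7 lay at 0.30, -0.06 and -0.23 against -0.70, -1.45 and -1.47 (1.21 ± 0.25, SE; adjusted p = 0.158, limma). Hoxd9 lay at 3.34, 3.82 and 3.70 against 2.69, 2.62 and 2.34, and its difference between adult lung and adult mammary was -4.11. Hoxd10 differed by 1.29 ± 0.39 (SE) and Hoxc8 by 0.93 ± 0.31 (SE). The 11 genes of groups 1 to 5 had a median of 0.49, led by Hoxd4 (1.37 ± 0.32, SE). Without the narrow-range arrays the 2 medians were 0.42 and 0.21. Of the 20 interferon response genes tested none passed, with a median of 0.48. At an unadjusted p under 0.05, 4 were higher (20%, against 7.37% of all features). Usp18 differed by 0.94 ± 0.42 (SE), Oasl2 by 0.92 ± 0.35 (SE), Rtp4 by 0.90 ± 0.41 (SE) and Ifit3 by 0.83 ± 0.37 (SE).

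The 3 features that passed the test were the transcript AK035950, Olfr652 and Trim12c. AK035950, a cDNA without a gene symbol in the reference table, lay at -0.29, -0.91 and -0.07 in reprogrammed lung and at -3.52, -3.91 and -4.12 in adult mammary, a difference of 3.43 ± 0.24 (SE; adjusted p = 0.000814, limma). It was well above background on all 12 arrays, at -0.79 ± 0.08 (SD, n = 3) in reprogrammed mammary and -4.41 ± 0.18 (SD, n = 3) in adult lung. So both reprogrammed groups lay at 1 level and both adult groups at another, and reprogrammed mammary too was above adult mammary (3.06, adjusted p = 0.00249, limma). It passed in 22 of 26 alternative settings, and did not with normexp background correction (adjusted p = 0.119), slide as a fixed block (0.766), the replicate block (0.0601) or the 6 arrays alone (0.308).

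Trim12c, a tripartite-motif gene of a cluster whose members include antiviral restriction factors, lay at -2.29, -2.25 and -1.62 in reprogrammed lung and at -4.24, -3.98 and -3.98 in adult mammary, a difference of 2.01 ± 0.23 (SE; adjusted p = 0.0409, limma). Its levels in adult lung, -2.66 ± 0.30 (SD, n = 3), and in reprogrammed mammary, -2.21 ± 0.23 (SD, n = 3), were also above adult mammary, and the former difference passed (1.40, adjusted p = 0.00161, limma), so adult mammary was the low group. The call held in 7 of 26 alternative settings, with the difference between 1.09 and 2.17 in all of them. Its neighbour Trim12a lay at -0.86, -1.07 and -0.83 against -2.23, -2.47 and -1.90 and missed the threshold (1.28 ± 0.17, SE; adjusted p = 0.0581, limma). Trim30d and Trim30a, of the same cluster, differed by 0.97 ± 0.23 and 0.66 ± 0.28 (SE).

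Olfr652, an olfactory receptor gene of the same chromosomal neighbourhood, was well above background on all 3 reprogrammed lung arrays, at -3.63, -4.33 and -4.49, and on no other array of the study. It passed the filter for testing only through reprogrammed lung, the group where it is high. Its mean was -4.15 in reprogrammed lung and -7.05 in adult mammary, where the probe was not well above background. The adjusted p of 0.00388 (limma) belongs to these measured values and is no support beyond them. Taking the adult mammary side at the lowest level that counted as above background on each of its arrays, reprogrammed lung was at least 2.04-fold higher. With dim values set to that level in the fit the call was lost (difference 1.03, adjusted p = 0.213, limma). In reprogrammed mammary the gene was not well above background either. The call held in 17 of 25 alternative settings.

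In gene order on RefSeq's assembly, 15 genes of the array lie from Olfr649 to Olfr657 around these 2. The stretch was chosen around these called genes, so its counts are a description. All 11 tested had a difference above 0, as had 58.6% of all features. All but Trim6 and Trim34a had an unadjusted p under 0.05, as had 7.37% of all features in the higher direction. Among the 8 that were above background on all adult mammary arrays, the differences ran from 0.41 for Trim6 and Trim34a to 2.01 for Trim12c. Olfr651 and Olfr655 were above background on 2 adult mammary arrays and Olfr652 on none, so their differences are not ranked with the rest. The promoter windows of Trim12a and Trim12c, of 300 bases, share an identical run of 71 bases. Probe sequences were not used, so whether 1 probe reads both transcripts was not tested. Only Trim12a, Trim12c, Trim30a, Trim30d and Olfr652 were searched, on either strand, for GAAANNGAA, an element core of interferon-responsive promoters. The 120 bases before the start are shown for the 3 of these genes with a match, because these genes differed in the same direction. They are from RefSeq on GRCm38.p6, in the gene's direction with the match in capitals.
Trim12c, chr7:104353350-104353469, minus strand: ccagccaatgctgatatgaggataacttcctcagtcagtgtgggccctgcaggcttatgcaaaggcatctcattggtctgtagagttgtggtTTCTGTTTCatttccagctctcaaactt
Trim30a, chr7:104465194-104465313, minus strand: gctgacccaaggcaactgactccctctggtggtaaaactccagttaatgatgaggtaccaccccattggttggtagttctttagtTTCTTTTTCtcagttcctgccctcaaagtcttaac
Trim30d, chr7:104507850-104507969, minus strand: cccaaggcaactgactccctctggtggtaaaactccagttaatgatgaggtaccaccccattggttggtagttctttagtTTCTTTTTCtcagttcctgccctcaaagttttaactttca
All 3 matches are to the reverse complement, starting 28, 35 and 40 bases upstream of the start. The windows of Trim30a and Trim30d share most of their bases, the match included, so their matches are not separate instances. The motif is in 3.11% of promoter windows of this length. It is not in the windows of Trim12a and Olfr652, nor in another start window of Trim30a, chr7:104446126-104446245.

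**Figure D5:**
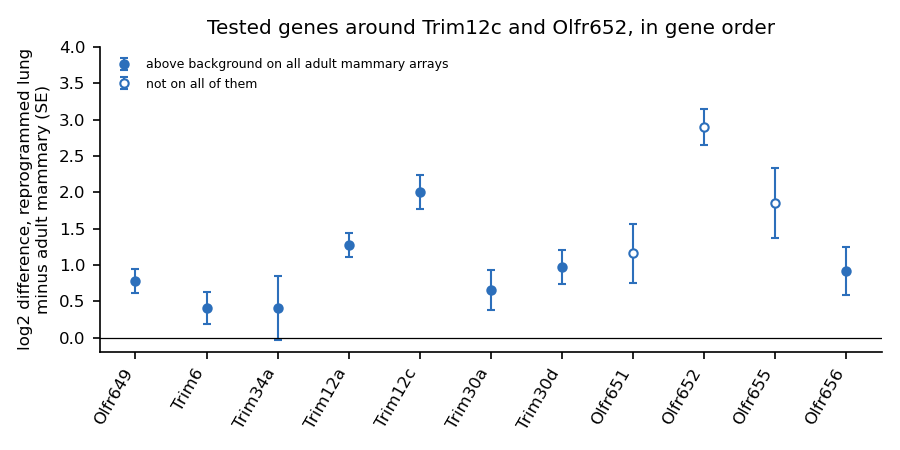
Log2 difference, reprogrammed lung minus adult mammary, with its SE from limma, for the 11 tested genes around Trim12c and Olfr652 in their order on the chromosome. All lie above 0; filled points, above background on all adult mammary arrays, reach 2.01 for Trim12c, and the open points, Olfr651, Olfr652 and Olfr655, rest on dim adult mammary values and have no rank.

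No feature was lower in reprogrammed lung at the threshold. The 10 named genes with the largest negative differences among those that did not overlap, none of which passed, ran from -3.12 for Ctsr to -2.05 for Esrrb. Ctsr, a cathepsin protease best known from placenta, lay at -4.17, -6.74 and -6.48 in reprogrammed lung, above background on 1 array, against -1.72, -3.46 and -2.86 in adult mammary. Cldn6, a claudin of embryonic epithelia, lay at -0.31, -1.96 and 0.31 against 1.59, 2.49 and 2.60 (-2.88 ± 0.60, SE; adjusted p = 0.168, limma). Its reprogrammed mammary mean was 2.54, within the adult mammary range, and it passed without reprogrammed lung replicate 4 (adjusted p = 0.0374, limma). Krt15, a basal keratin, differed by -2.75 ± 1.27 (SE), Gdpd3, a lysophospholipase, by -2.67 ± 0.81 (SE) and Crym, a thyroid hormone binding protein, by -2.37 ± 0.61 (SE). Wfdc12, of the whey acidic protein family, lay at -2.50, -3.39 and -4.77 against -2.11, 0.46 and -1.20. Prr18 was above background on all adult mammary arrays and on none of reprogrammed lung, at least 2.49-fold lower (adjusted p = 0.187, limma). Esrrb, an orphan nuclear receptor, lay at -1.82, -2.20 and -2.34 against -0.26, 0.24 and -0.17. Krt14 and Cited1, described above, complete the 10.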

How the data were processed

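The deposited scanner files hold intensity values from Agilent Feature Extraction, version 10.5.1.1 per the file headers and 10.1 per the submitters' processing notes, with background subtraction and spatial detrending within each array and no scaling between arrays. The authors' deposited value table holds log2 values of unstated between-array method (column medians 6.78 to 6.79); it was used as an alternative. Spots of a probe were averaged without outlier spots (91 to 280 per array), which left 301 tested features without a value on some array, and those were fitted on the others. The log2 signal was centred on each array's 75th percentile. The 75th percentile signal ran from 293.8 to 608.5. Accessions were matched to RefSeq symbols for 24844 of 41174 probes, and the brightest probe stood for a gene. A feature was tested if well above background on all 3 arrays of at least 1 group. Tests were limma 3.58.1 in R 4.3.3, 1 fit over 12 arrays (8 residual and 2.37 prior degrees of freedom), Benjamini-Hochberg over all features. The script was tested on simulated data. An "at least" fold sets the dim group to each array's lowest level above background. Normexp correction (offset 50) used the median signal. Named genes are those past the threshold, otherwise the 10 largest without overlap, plus fixed markers and up to 4 members of each of 43 lists. The members and lists were chosen with earlier results of these data known. One marker gene is not reported here. The number of arrays limits the precision.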

Additional observations from a re-analysis of the deposited data

Results flagged for a closer look

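Olfr652 differed between the 2 reprogrammed groups when both were set against adult mammary: it was 2.77 log2 units higher in reprogrammed lung than in reprogrammed mammary (SE 0.25, adjusted p = 0.0120, limma), higher on 3 of 3 arrays. The probe was not well above background in reprogrammed mammary and was tested only through reprogrammed lung, so the value is no fold change. Groups of 3 arrays are too small for a check of single outlying arrays.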

How the results depend on the processing

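The features higher in reprogrammed lung, 3 in the main setting, numbered 0 with normexp correction, slide as a fixed block, the replicate block and the 6 arrays alone, 1 with dim values set to the lowest level above background, 8 with every probe on its own and 12 with both narrow-range arrays left out. The features lower, 0 in the main setting, numbered 3 with quantile normalization, 1 with the authors' log2 values and 4 with both narrow-range arrays left out. Intervals inside 2-fold numbered 7980 with slide as a fixed block and 8667 with the 6 arrays alone. Leaving out each array in turn gave 2 to 279 features higher, 0 to 48 lower, 0 to 21 lung-high features higher and 0 to 20 mammary-high features lower; without both narrow-range arrays, 2 lung-high features were higher. The lung-side position difference kept its sign in every alternative, from 0.0281 to 0.174 when 1 array was left out. The mammary-side difference ran from -0.00739 to 0.0690 when 1 array was left out, and was -0.0136 without both narrow-range arrays and -0.0583 within the shared slide. The medians of the alveolar type I and II, ciliated, embryonic lung, macrophage, plasma cell, Schwann cell, cornified, ribosomal, fatty acid and hypoxia lists also changed sign in at least 1 of 26 alternatives. The cause of these changes was not tested. Deviations of same-numbered arrays from their group means correlated at r = -0.41 for number 1 and -0.53 for number 4. Each of these pairs held a narrow-range array, so the values cannot tell whether the numbers pair samples. With the replicate block the position differences were 0.131 and 0.0501. The 10 named lower genes kept their direction in all alternatives that gave a value. With 3 arrays a group, the median half-width of the unadjusted intervals was about 0.65 log2 units. That is not the smallest difference the adjusted test can call. Much larger differences stayed uncalled in limma: Cldn6 (-2.88) and Scgb3a1 (2.53) did not pass in the main setting, while Trim12c (2.01) did.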

Other observations

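The share of olfactory receptor genes, the odour receptors of the nose, read as above background varied widely between arrays and overlapped between the groups. Of 886 olfactory receptor features on the array, the share well above background was 84.0%, 52.1% and 44.7% in reprogrammed lung (replicates 1, 3 and 4), against 36.8%, 29.9% and 62.9% in adult mammary (replicates 1, 2 and 4) and 34.4%, 43.8% and 43.9% in reprogrammed mammary. Over all features the same shares were 90.3%, 72.9% and 74.3%, against 71.6%, 71.0% and 87.8%. The 2 narrow-range arrays had the highest values in both. For 127 vomeronasal receptor features the shares were 81.9%, 48.8% and 33.9%, against 24.4%, 21.3% and 52.8%. Of 374 olfactory receptor features tested, 73 were tested only because they were above background in reprogrammed lung. The part of background signal in these values was not tested.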
